A study of Mus musculus with 6 samples.

Results

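The genes described here are 43 genes of the skeletal muscle sarcomere and of the cells that form it, out of 55291 genes in the table. They were taken by name: fast, slow and developmental isoforms of the contractile proteins, the proteins of muscle calcium handling, 3 genes of muscle energy and oxygen supply, and 3 myogenic transcription factors. The set was selected on measured values: the fold changes of muscle genes between KO and WT in these same libraries were already known. The comparison of genotypes given for them is therefore a description. All 43 names stood in the table, and 39 passed the filter on low counts. Bulk RNA-seq was made from tumours of the mouse glioma line CT2A, which the labels' tissue entry places under the skin and their source entry in the brain, with 3 libraries of the genotype Siglece KO and 3 of the genotype WT. Siglece encodes Siglec-E, an inhibitory receptor of myeloid cells. The labels give no treatment, strain, age or sex, and they do not say whether the genotype is that of the host or of the tumour cells. Each library was made from 5000 to 20000 cells that the labels call CT2A cells, and no sorting step is named. It is not stated if libraries of 1 group are different animals, so p-values reflect the spread between these libraries, which may be technical.

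Skeletal muscle contracts when myosin of the thick filament pulls on actin of the thin filament, within the sarcomere that titin and nebulin span. Troponin and tropomyosin switch the thin filament on when calcium leaves the sarcoplasmic reticulum through the ryanodine receptor, and the SERCA pump takes it back. Fibres are typed by their myosin heavy chain: type IIb (Myh4), IIx (Myh1) and IIa (Myh2) are fast and type I (Myh7) is slow, while the embryonic (Myh3) and perinatal (Myh8) chains mark developing or regenerating fibres. In the mouse, a thin sheet of mostly fast muscle, the panniculus carnosus, lies under the skin, and limb and trunk muscles are mostly fast as well.

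The upstream sequences of 4 members are shown because the results turn on how these genes differ: Acta1 and Myh4 had the highest summed counts of the members after the tropomyosins Tpm1 and Tpm3, the ratio of Myh1 to Myh4 differed between libraries, and Myh3 followed another order of libraries. Each run holds the 250 bases before the RefSeq start site (GRCm38.p6, the assembly that mm10 also names), 5′ to 3′ on the gene's strand. Capitals mark matches, on either strand, to the E-box CAGCTG, the MCAT motif CATTCC, the MEF2 box and the CArG box. Myh4 lies at chr11:67237562-67237811 on the plus strand, Myh1 at chr11:67199852-67200101 on the plus strand, Acta1 at chr8:123894776-123895025 on the minus strand and Myh3 at chr11:67078050-67078299 on the plus strand.
Myh4: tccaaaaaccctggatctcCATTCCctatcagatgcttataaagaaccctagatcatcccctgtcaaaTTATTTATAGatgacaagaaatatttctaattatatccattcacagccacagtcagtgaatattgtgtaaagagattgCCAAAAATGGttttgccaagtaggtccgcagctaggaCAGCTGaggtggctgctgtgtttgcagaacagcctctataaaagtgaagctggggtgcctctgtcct
Myh1: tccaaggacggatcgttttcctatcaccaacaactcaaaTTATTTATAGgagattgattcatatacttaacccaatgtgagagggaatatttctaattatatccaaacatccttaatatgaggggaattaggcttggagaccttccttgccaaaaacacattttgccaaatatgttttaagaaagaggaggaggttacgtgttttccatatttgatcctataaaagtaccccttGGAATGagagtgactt
Acta1: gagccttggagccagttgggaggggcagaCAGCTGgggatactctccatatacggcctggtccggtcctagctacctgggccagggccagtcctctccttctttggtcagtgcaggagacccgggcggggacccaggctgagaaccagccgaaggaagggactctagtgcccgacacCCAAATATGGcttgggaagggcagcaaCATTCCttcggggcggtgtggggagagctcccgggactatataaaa
Myh3: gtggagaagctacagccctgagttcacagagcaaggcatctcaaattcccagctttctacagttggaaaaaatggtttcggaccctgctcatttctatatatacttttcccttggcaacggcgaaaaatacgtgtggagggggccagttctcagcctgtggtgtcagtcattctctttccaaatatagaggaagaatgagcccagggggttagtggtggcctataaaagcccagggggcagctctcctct
The Myh4 sequence held all 4 motifs, the MCAT motif at -231, the MEF2 box at -182, the CArG box at -104 and the E-box at -67, counted in bases from the start site, with no overlap between them. Myh1 held a MEF2 box at -211 and an MCAT motif at -16. Acta1 held an E-box at -221, a CArG box at -73 and an MCAT motif at -46. Myh3 held none of the 4 in this window. Upstream sequences were found for 35 of the 43 members. At least 1 start site held the MEF2 box in 7 of 35 members against 3.42% of 27025 genes, the CArG box in 5 of 35 members against 1.62% of 27025 genes, the E-box in 13 of 35 members against 14.7% of 27025 genes and the MCAT motif in 10 of 35 members against 14.4% of 27025 genes. These matches describe letters only.

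Values are always listed in the order of replicates 1, 2 and 3, which only name the libraries. Siglece, the targeted gene, had 0, 8 and 0 counts in KO and 74, 99 and 64 in WT, a log2 fold change of -4.66 with an SE of 1.15 and an adjusted p of 0.0409 in edgeR. Library totals ran from 24369359 to 40574093 counts. Of the 9 markers of glioma and neural cells, 8 had counts in every library, and Gfap had 0 in KO replicate 3; markers of other tissue cells are given at the end. A level is given as CPM (counts scaled to the library's TMM-corrected total) divided by the kilobases of merged exon. This sets different genes on a rough common scale. Merged exons can be longer than any 1 transcript, and evenness of read coverage along transcripts was not checked. Levels of very long genes such as Ttn and Neb are therefore compared with others only roughly. In bulk tumour RNA, fewer muscle fibres and less muscle RNA per fibre cannot be told apart.

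Muscle RNA was a small share of every library and was highest in the KO libraries. The 14 fast isoform genes took 0.117, 0.0388 and 0.195% of all counts in KO and 0.0182, 0.0121 and 0.0105% in WT. Their summed level was 539, 151 and 1239.8 in KO and 114, 49.4 and 44.7 in WT, 643 ± 552 against 69.3 ± 38.6 (SD, n = 3). The groups did not overlap, but KO replicate 2 stood close to WT replicate 1, and KO replicate 3 held more than both other KO libraries together. The 8 slow genes were far lower, at 7.92, 6.18 and 10.6 in KO and 6.89, 3.40 and 3.67 in WT, and their groups overlapped. The 3 developmental genes summed to 1.25, 1.60 and 0.925 in KO and 1.70, 0.977 and 1.71 in WT, also with overlap.

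**Figure D1:**
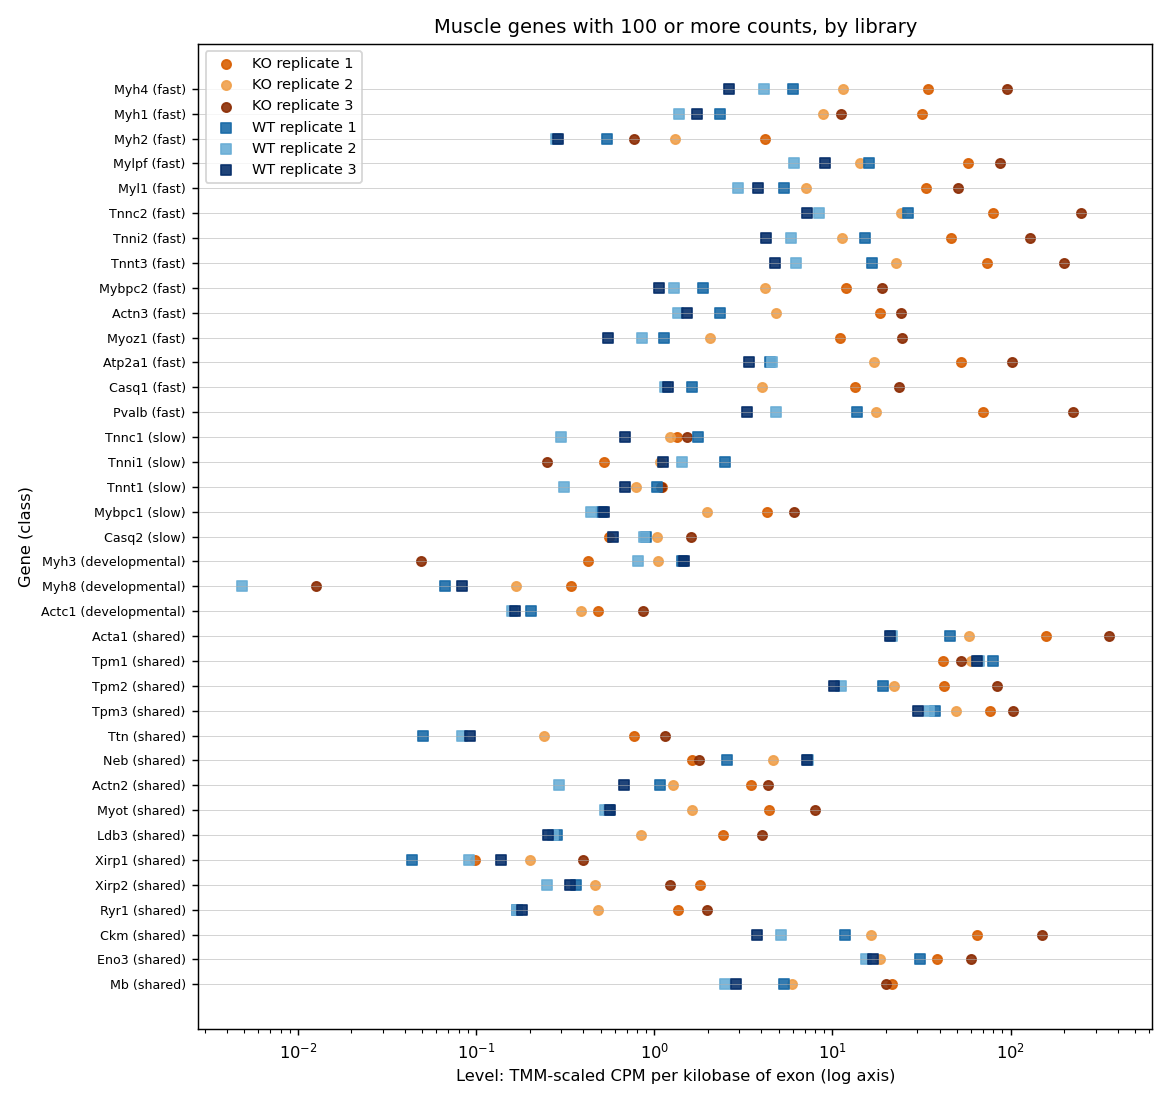
Length-scaled level (TMM-scaled CPM per kilobase of exon, log axis) of the 37 members with 100 or more counts in all, 1 point per library, with circles for KO and squares for WT. For most fast genes KO replicate 3 lies to the right, followed by KO replicates 1 and 2, while Tnni1, Myh3, Neb and Tpm1 do not follow that order.

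In the edgeR fit over all genes, 18 of the 39 tested members were higher in KO and 0 lower at an adjusted p of 0.05. Over all 18621 genes tested, 11.2% were called higher and 0.226% lower, and nothing is read from the members' count, since this contrast chose them. At an unadjusted p of 0.05, 27 members were higher and 1 lower, and 5919 of all 18621 genes tested passed that cut in either direction. DESeq2 called 26 higher and 0 lower (17.5% and 6.68% of all genes), and limma-voom 7 and 0 (5.31% and 0.166%). The median log2 fold change was 2.50 over the tested members and -0.05 over all genes tested. Groups did not overlap for 24 tested members with KO above WT (24.6% of all genes tested) and for 2, Tnni1 and Tpm1, with KO below (19.5%). By class, 10 of 14 fast, 1 of 6 slow, 0 of 3 developmental and 7 of 16 other tested members were called higher. Of the developmental genes 1 was higher at an unadjusted p of 0.05, and DESeq2 and limma-voom called 0. With edgeR, 0 members and 0.0% of all genes were called when KO replicate 1 or any 1 of the WT libraries was left out. In those fits, with KO replicate 1 and each WT library dropped in turn, 26, 29, 26 and 26 members had an unadjusted p under 0.05. Over all genes the same cut was passed by 3461 of 19380, 4931 of 19694, 4282 of 19483 and 4246 of 19503, in either direction. Dropping KO replicate 3 left 11 members higher and 0 lower (4.85% and 0.0309% of all genes). Dropping KO replicate 2 gave 27 higher and 2 lower, Tnni1 and Neb (22.7% and 18.5%).

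**Figure D2:**
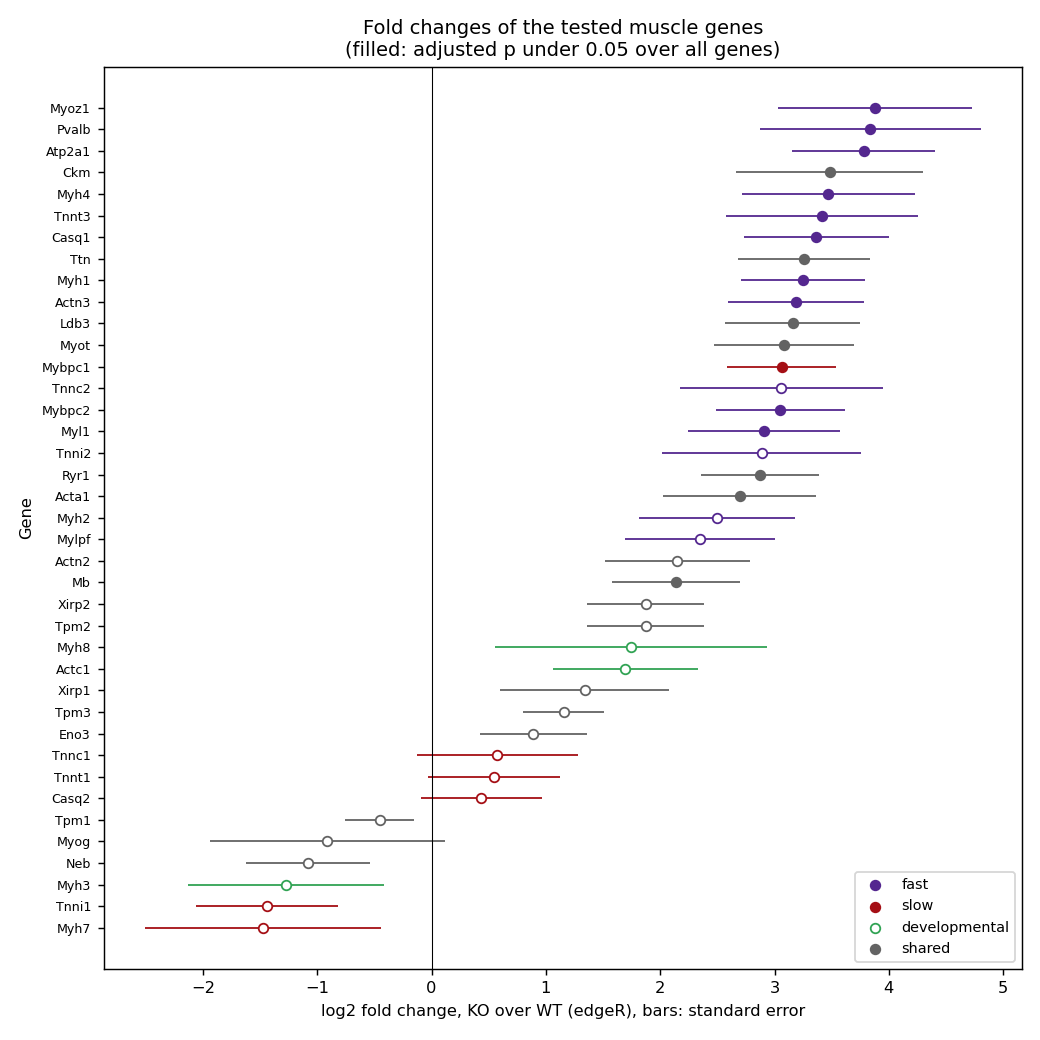
Log2 fold change of KO over WT from edgeR for the 39 tested members, with bars for the standard error and filled points for an adjusted p under 0.05 over all genes. Fast genes lie between 2.35 (Mylpf) and 3.88 (Myoz1), and 6 genes lie below 0.

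Among the myosin heavy chains, the fast IIb and IIx chains made up most of the RNA in each library. Myh4, the IIb chain (chr11:67238029-67260446, mm10), was at a length-scaled level of 34.5, 11.5 and 95 in KO and 5.98, 4.12 and 2.64 in WT. It rose in KO, with a log2 fold change of 3.47 (SE 0.76, adjusted p = 0.0303, edgeR). Myh1, the IIx chain (chr11:67200052-67224575), was at 31.8, 8.85 and 11.2 in KO and 2.35, 1.38 and 1.73 in WT. It rose as well, by 3.25 (SE 0.54, adjusted p = 0.0246, edgeR), but its highest library was KO replicate 1 and not KO replicate 3. Myh2, the IIa chain (chr11:67171027-67197517), was at 4.19, 1.31 and 0.768 in KO and 0.544, 0.279 and 0.288 in WT on the same scale. All KO libraries were above all WT libraries for these 3 genes, and Myh2 did not pass the test (log2 fold change 2.50, SE 0.68, adjusted p = 0.0539, edgeR).

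The mix of adult heavy chains differed more among the KO libraries than among the WT libraries. Of the summed level of the 6 heavy chains, Myh4 took 48.3, 50.2 and 88.8% in KO and 57.0, 62.0 and 42.1% in WT, or 62.4 ± 22.8% and 53.7 ± 10.3% (SD, n = 3). KO replicate 3 was the highest, and the other KO libraries lay within the range of WT on this denominator, which includes the developmental chains. Of the 4 adult chains alone, Myh4 took 48.9, 53.0 and 88.8% in KO and 66.4, 70.7 and 55.9% in WT, or 63.6 ± 22.0% and 64.3 ± 7.60% (SD, n = 3). There KO replicates 1 and 2 lay below all WT libraries and KO replicate 3 above them. In raw counts the Myh4 share was 88.1% in KO replicate 3 (95% exact binomial interval 87.6 to 88.7%) and 46.5% in KO replicate 1 (45.6 to 47.3%), so counting error was small. Such intervals cover counting error only. Of all 6 chains, Myh1 took 44.7, 38.6 and 10.4% in KO and 22.4, 20.7 and 27.6% in WT. Myh2 took 5.88, 5.70 and 0.718% and 5.18, 4.21 and 4.59%. KO replicate 3 thus had the lowest share of the IIx and of the IIa chain, though not the lowest level of either. The other 5 libraries held Myh2 at a share of 4.21 to 5.88%.

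**Figure D3:**
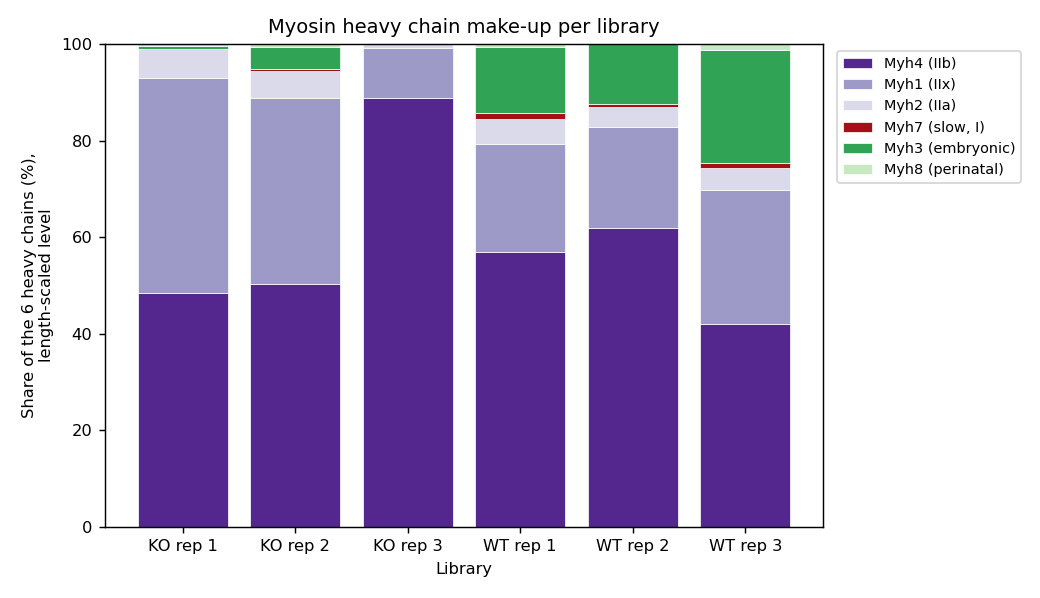
Share of each myosin heavy chain in the summed length-scaled level of the 6 chains (%), 1 stacked bar per library. Myh4 fills 88.8% of the bar of KO replicate 3, and the embryonic chain Myh3 fills 12.3 to 23.4% of the WT bars.

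The slow and developmental heavy chains followed other orders of the libraries. Myh7, the slow chain (chr14:54970684-54994626), had 7, 17 and 0 counts in KO and 42, 15 and 18 in WT. Its 99 counts in all fell 1 short of the rule for named genes, and it was named after its values were seen because it defines type I fibres. It took at most 1.27% of the heavy chain level in any library, and its 0 counts in KO replicate 3 allow a share of counts of up to 0.0231% there. Myh3, the embryonic chain (chr11:67078300-67102291), was at a length-scaled level of 0.427, 1.04 and 0.0494 in KO and 1.43, 0.814 and 1.46 in WT. Both WT replicates 1 and 3 were above all KO libraries, KO replicate 3 was lowest, and the log2 fold change of -1.27 (SE 0.86, adjusted p = 0.321, edgeR) did not pass. Its share of the heavy chain level was 0.598, 4.55 and 0.0462% in KO and 13.6, 12.3 and 23.4% in WT, without overlap. Most of that total was Myh4 and Myh1, which rose in KO, and the level of Myh3 itself overlapped between the groups. Myh8, the perinatal chain, had 118, 69 and 3 counts in KO and 29, 2 and 33 in WT, and its groups overlapped.

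The light chains were the fast isoforms almost alone. Mylpf, the fast regulatory light chain, was at a length-scaled level of 57.5, 14.3 and 87.4 in KO and 16.0, 6.12 and 9.05 in WT, and Myl1, the fast essential light chain, at 33.6, 7.09 and 50.5 in KO and 5.36, 2.95 and 3.83 in WT. Myl1 rose (log2 fold change 2.91, SE 0.66, adjusted p = 0.0329, edgeR) and Mylpf did not pass (2.35, SE 0.66, adjusted p = 0.0577, edgeR). KO replicate 2 was below WT replicate 1 for Mylpf, so those groups overlapped. The slow partners were near 0: Myl2 had 4, 1 and 0 counts in KO and 3, 0 and 0 in WT, and Myl3 had 1 count, in KO replicate 1. Both were below the filter and not tested.

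The fast troponins were the main form in every library. Tnnc2, the calcium-binding subunit of fast fibres, was at 79.9, 24.4 and 248 in KO and 26.6, 8.37 and 7.18 in WT (length-scaled level), Tnni2, the fast inhibitory subunit, at 46.4, 11.4 and 129 in KO and 15.1, 5.82 and 4.21 in WT, and Tnnt3, the fast tropomyosin-binding subunit, at 73.4, 22.6 and 199.8 in KO and 16.7, 6.28 and 4.74 in WT. Tnnt3 rose (log2 fold change 3.42, SE 0.84, adjusted p = 0.0404, edgeR). Tnnc2 and Tnni2 did not pass, with log2 fold changes of 3.06 (SE 0.88, adjusted p = 0.0631, edgeR) and 2.89 (SE 0.87, adjusted p = 0.0717, edgeR), and for both WT replicate 1 was above KO replicate 2. Tnnc1, the subunit of slow and cardiac muscle, was at 1.34, 1.23 and 1.53 in KO and 1.76, 0.301 and 0.686 in WT, and Tnnt1, the slow subunit, at 1.11, 0.788 and 1.09 in KO and 1.04, 0.310 and 0.689 in WT. Neither passed the test, and both had overlapping groups. Tnni1, the slow inhibitory subunit, was at 0.520, 1.08 and 0.249 in KO and 2.51, 1.42 and 1.12 in WT. All KO libraries were below all WT libraries, the unadjusted p was 0.0496, and it did not pass over all genes (log2 fold change -1.44, SE 0.62, adjusted p = 0.157, edgeR).

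As shares of fast and slow isoform pairs, the slow troponins stood lower in KO replicates 1 and 3 than elsewhere. Slow troponin I was 1.11, 8.70 and 0.193% of its pair's length-scaled level in KO and 14.2, 19.7 and 20.9% in WT, 3.33 ± 4.67% against 18.3 ± 3.56% (SD, n = 3). For slow troponin T the shares were 1.49, 3.37 and 0.541% and 5.88, 4.71 and 12.7%, and for slow troponin C 1.65, 4.81 and 0.614% and 6.19, 3.47 and 8.72%. Groups did not overlap for troponins I and T and overlapped for troponin C. Casq2 took 4.01, 20.6 and 6.34% of the calsequestrin pair in KO and 35.4, 43.1 and 33.1% in WT. By contrast, Mybpc1 took 26.3, 32.0 and 24.3% and 21.3, 25.4 and 33.1% of its pair, with overlap. Summed over the 7 pairs, slow isoforms took 2.44, 6.51 and 1.37% in KO and 7.50, 9.48 and 10.3% in WT, 3.44 ± 2.71% against 9.11 ± 1.45%. KO replicate 2 was again the KO library nearest to WT. For comparison, the summed level of the 8 slow genes was 8.22 ± 2.20 in KO and 4.65 ± 1.94 in WT. Within that sum, Mybpc1 alone was at 4.11 ± 2.07 in KO and 0.491 ± 0.0448 in WT, and fast fibres also carry it. The means of Tnni1 and Myh7 were lower in KO, so the sum does not show that slow genes rose as a class.

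**Figure D4:**
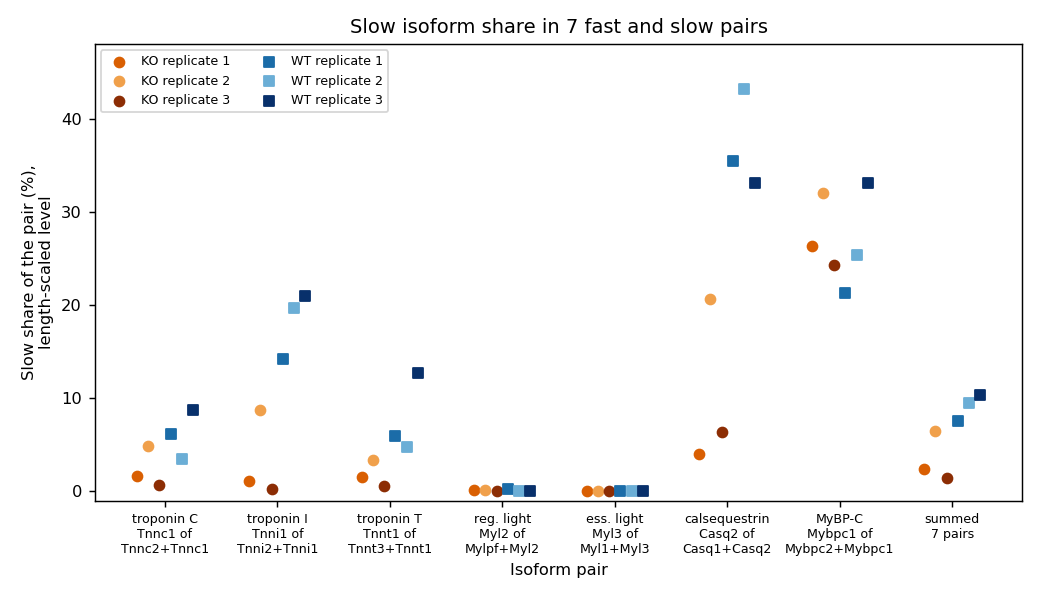
Slow isoform share of the summed length-scaled level of each fast and slow pair (%), 1 point per library, with the sum over the 7 pairs at the right. Both light chain pairs lie near 0 in each library, and slow troponin I lies between 14.2 and 20.9% in WT and at 0.193 to 8.70% in KO.

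Of the actins, Acta1, the adult skeletal form, had the highest summed counts of the members outside the tropomyosins. Its length-scaled level was 158, 58.7 and 357 in KO and 45.8, 21.7 and 21.1 in WT, and it rose in KO (log2 fold change 2.69, SE 0.67, adjusted p = 0.0414, edgeR). Actc1, the cardiac actin that developing skeletal muscle also uses, had 23, 22 and 28 counts in KO and 12, 9 and 9 in WT and did not pass (1.69, SE 0.63, adjusted p = 0.119, edgeR). The tropomyosins, which coat the thin filament, are also expressed by many other cell types. Tpm1 was at 41.9, 59.9 and 52.6 in KO and 80.1, 66.8 and 64.4 in WT and Tpm3 at 76.1, 49.6 and 103 in KO and 37.7, 34.7 and 30.2 in WT, on the same scale. Tpm1 stood lower in every KO library than in any WT library, with a log2 fold change of -0.45 (SE 0.30, adjusted p = 0.316, edgeR) that did not pass. Tpm2 was at 42.3, 22.1 and 84.4 in KO and 19.2, 11.2 and 10.2 in WT, with KO above WT throughout, and also did not pass (1.87, SE 0.51, adjusted p = 0.0545, edgeR).

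Titin and nebulin, the giant proteins that span the thick and thin filaments, did not follow each other. Ttn (chr2:76703980-76982547) was at a length-scaled level of 0.767, 0.242 and 1.15 in KO and 0.0505, 0.0830 and 0.0931 in WT and rose in KO (log2 fold change 3.25, SE 0.58, adjusted p = 0.0246, edgeR). Neb (chr2:52136647-52378474) was at 1.62, 4.65 and 1.79 in KO and 2.57, 7.32 and 7.17 in WT, and its log2 fold change of -1.08 (SE 0.54, adjusted p = 0.203, edgeR) did not pass. Neb was highest in WT replicates 2 and 3 and lowest in KO replicates 1 and 3. Per kilobase, Neb was 2.12, 19.2 and 1.55 times Ttn in KO and 50.8, 88.2 and 77.0 times Ttn in WT. The merged exons of Neb and Ttn span 26675 and 117334 bases, so the size of this ratio is uncertain. Its change between libraries does not depend on the lengths used. The myosin-binding proteins that brace the thick filament both rose. Mybpc2, the fast form, was at 12.0, 4.18 and 19.0 in KO and 1.88, 1.29 and 1.06 in WT (3.05, SE 0.56, adjusted p = 0.0246, edgeR), and Mybpc1, the slow form that fast fibres also carry, at 4.28, 1.97 and 6.09 in KO and 0.507, 0.441 and 0.526 in WT (3.06, SE 0.48, adjusted p = 0.0246, edgeR).

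At the Z-disc, where thin filaments are anchored, 4 of 7 members rose in edgeR, against 11.2% of all genes tested. DESeq2 called 6 of the 7 higher (17.5% of all genes) and limma-voom 0 (5.31%). Actn3, the alpha-actinin of fast fibres, was at a length-scaled level of 18.5, 4.81 and 24.2 in KO and 2.34, 1.36 and 1.52 in WT (log2 fold change 3.19, SE 0.60, adjusted p = 0.0246, edgeR), while Actn2, the alpha-actinin of all fibres, was at 3.49, 1.28 and 4.34 in KO and 1.08, 0.293 and 0.674 in WT and did not pass (2.15, SE 0.63, adjusted p = 0.0670, edgeR). Myoz1, a calcineurin-binding protein of fast fibres, was at 11.0, 2.06 and 24.6 in KO and 1.14, 0.858 and 0.550 in WT. Its log2 fold change of 3.88 (SE 0.85, adjusted p = 0.0303, edgeR) was the highest of the tested members. Myot, the actin cross-linker myotilin, was at 4.42, 1.62 and 8.01 in KO and 0.557, 0.529 and 0.566 in WT (3.08, SE 0.61, adjusted p = 0.0259, edgeR). Ldb3, a PDZ-LIM scaffold, was at 2.42, 0.840 and 4.01 in KO and 0.286, 0.271 and 0.253 in WT (3.16, SE 0.59, adjusted p = 0.0246, edgeR). In all 4 genes every KO library was above every WT library, and KO replicate 3 was highest. Xirp2, an actin-binding repeat protein, was highest in KO replicate 1 at 1.80 and did not pass (1.87, SE 0.51, adjusted p = 0.0542, edgeR). Xirp1, its relative, had 18, 44 and 50 counts in KO and 10, 20 and 29 in WT and overlapping groups.

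In calcium handling, the fast genes rose together and Casq2 did not pass. Atp2a1, the SERCA1 pump of fast fibres, was at a length-scaled level of 52.6, 17.1 and 102 in KO and 4.49, 4.56 and 3.41 in WT (log2 fold change 3.78, SE 0.62, adjusted p = 0.0246, edgeR). Pvalb, the calcium buffer of fast glycolytic fibres, was at 70.3, 17.5 and 225 in KO and 13.7, 4.84 and 3.32 in WT (3.84, SE 0.96, adjusted p = 0.0425, edgeR). Pvalb had the widest range over the libraries of the fast genes, with its highest library 67.8 times its lowest. Casq1, the calcium store protein of fast fibres, was at 13.4, 4.01 and 23.7 in KO and 1.64, 1.15 and 1.19 in WT (3.36, SE 0.63, adjusted p = 0.0246, edgeR). Ryr1, the calcium release channel, was at 1.37, 0.483 and 1.97 in KO and 0.169, 0.171 and 0.181 in WT (2.87, SE 0.52, adjusted p = 0.0246, edgeR). The WT libraries lay close together for Ryr1 and far below the KO libraries. Casq2, the slow and cardiac form, was at 0.559, 1.04 and 1.60 in KO and 0.899, 0.875 and 0.587 in WT, with overlapping groups and a log2 fold change of 0.44 (SE 0.53, adjusted p = 0.577, edgeR); it was -0.00229 without KO replicate 3.

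Of the genes of energy and oxygen supply, Ckm and Mb rose and Eno3 did not pass. Ckm, the muscle creatine kinase that buffers ATP, was at a length-scaled level of 64.5, 16.4 and 150.1 in KO and 11.8, 5.13 and 3.76 in WT (log2 fold change 3.48, SE 0.82, adjusted p = 0.0361, edgeR). Mb, the oxygen store myoglobin of oxidative fibres, was at 21.5, 5.94 and 19.9 in KO and 5.37, 2.48 and 2.89 in WT (2.14, SE 0.56, adjusted p = 0.0473, edgeR), and its adjusted p was 0.0543 with RLE scaling. KO replicates 1 and 3 held nearly the same level of Mb, although Ckm was 2.33 times as high in KO replicate 3. Eno3, the muscle enolase of glycolysis, was at 38.6, 18.5 and 60.1 in KO and 30.9, 15.5 and 16.8 in WT, and its groups overlapped (0.89, SE 0.47, adjusted p = 0.218, edgeR). Without KO replicate 3, Acta1, Myl1, Tnnt3, Myoz1, Myot, Pvalb, Ckm and Mb missed the threshold, at adjusted p from 0.0505 for Myot to 0.118 for Mb (edgeR), and Myh2 passed.

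KO replicates 1 and 3, the libraries with the most muscle RNA, differed in kind as well as amount. This sets 1 library against 1 library and has no test. From KO replicate 1 to KO replicate 3 the length-scaled level was 3.20 times as high for Pvalb, 3.11 for Tnnc2, 2.78 for Tnni2, 2.75 for Myh4 and 2.26 for Acta1. These genes belong to IIb fibres, to fast fibres or to skeletal muscle in general. It was 1.24 times for Actn2, 1.31 for Actn3 and 1.51 for Ttn. In the other direction, KO replicate 1 held 2.85 times as much Myh1, 5.46 times as much Myh2 and 1.46 times as much Xirp2 as KO replicate 3. The developmental genes Myh8 and Myh3 were also higher in KO replicate 1, 26.8 times on 118 and 3 counts and 8.64 times on 76 and 6 counts. The slow gene Tnni1 was 2.09 times as high there, and Myh7 had 7 and 0 counts. Other slow and developmental genes ran the other way, with KO replicate 3 at 2.87 times KO replicate 1 for Casq2, 1.78 for Actc1, 1.42 for Mybpc1 and 1.14 for Tnnc1. Tnnt1 was nearly level, at 0.977. Among the ratios of KO replicate 3 to KO replicate 1, the highest was 4.07, for Xirp1, which rests on 18 and 50 counts. KO replicates 1 and 2 had similar adult heavy chain shares at different amounts, with Myh4 2.99 times and Myh1 3.60 times as high in replicate 1. Comparisons between libraries rest on the TMM scaling, and shares within a library do not.

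The myogenic factors were at the edge of detection. Pax7, the marker of satellite cells, the stem cells of muscle, had 2, 2 and 0 counts in KO and 0, 0 and 0 in WT. Myod1, which commits cells to the muscle lineage, had 5, 8 and 0 counts in KO and 0, 0 and 4 in WT. Neither passed the filter on low counts, and both were at 0 in KO replicate 3, the library with the most fibre RNA. Myog, which drives myoblast differentiation, had 9, 13 and 0 counts in KO and 22, 7 and 18 in WT, with its highest count in WT replicate 1. Its log2 fold change of -0.91 (SE 1.03, adjusted p = 0.546, edgeR) did not pass. A count of 0 allows up to 0.0820 to 0.150 CPM (3 counts) in these libraries, so these levels were not told apart from 0 in KO replicate 3.

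How closely members moved together was described by their ratio to Acta1 in each library. Acta1 itself varied 16.9-fold over the 6 libraries. The members, Acta1 among them, were chosen with the fold changes of muscle genes known, so nothing is read from the comparison with all genes. The ratio to Acta1 varied 5-fold or less for 24 of the other 38 tested members, against 11.7% of all genes tested. These were 12 of 14 fast, 1 of 6 slow, 1 of 3 developmental and 10 of 15 other members. The steadiest were Mylpf (1.76-fold), Myl1 (1.81-fold), Mybpc2 (1.85-fold) and Tnni2 (1.86-fold). The single slow member was Mybpc1, at 3.03-fold, and the fast members outside the limit were Myh1 and Myh2, at 6.45-fold and 12.3-fold. Far outside lay Myh3 (501-fold), Myh8 (111-fold), Tnni1 (93.8-fold), Neb (67.8-fold) and Tpm1 (20.8-fold). For each of Myh3, Tnni1, Neb and Tpm1 the highest library was a WT library.

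Other skeletal muscle genes, a list of 45 that shares none of the members, were described in the same way. Of 43 tested, 18 were higher in KO and 0 lower (11.2% and 0.226% of all genes tested), with a median log2 fold change of 2.21. At an unadjusted p of 0.05, 32 were higher and 1 lower (5919 of all 18621 genes tested, either direction). DESeq2 and limma-voom called 0 lower (6.68% and 0.166% of all genes). Their summed length-scaled level was 180.0, 70.0 and 334 in KO and 57.8, 29.9 and 27.9 in WT. By the naming rule the genes were Jph2, which ties the surface membrane to the calcium store (2.18, SE 0.34), Dysf, a membrane repair protein (2.12, SE 0.37), Pygm, the muscle glycogen phosphorylase (3.67, SE 0.65), Cmya5 (3.23, SE 0.57), Mylk2, the kinase of the fast regulatory light chain (3.50, SE 0.65), and Cacna1s, the voltage sensor of the T-tubule (3.18, SE 0.60). Pygm was at 47.8, 14.7 and 91.4 in the KO and 5.22, 3.79 and 3.04 in the WT libraries (CPM), in the same order of KO libraries as Myh4. The ratio to Acta1 varied 5-fold or less for 33 of the 43, against 11.7% of all genes tested. The count of 18 was 29 with DESeq2 (17.5% of all genes) and 5 with limma-voom (5.31%). It was 33 when KO replicate 2 was left out (22.7%) and 6 when KO replicate 3 was (4.85%). In each of the other 4 such fits it was 0 (0.0%).

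For genes of myogenesis and of the neuromuscular junction, the ratio to Acta1 stayed within 5-fold for 2 of 13 (15.4%), near the 11.7% of all genes tested. For this list and those below, the shares of all genes tested were 11.2% higher and 0.226% lower in edgeR. They were 17.5% and 6.68% in DESeq2 and 5.31% and 0.166% in limma-voom. At an unadjusted p of 0.05 in edgeR, 5919 of 18621 genes passed in either direction. Counts near these shares are not read as results about a list. Of 22 listed, 13 were tested, 2 were higher and 0 lower (DESeq2: 2 and 2; limma-voom: 1 and 0), and 2 each way had an unadjusted p under 0.05. Those higher were Rapsn, which clusters acetylcholine receptors (2.49, SE 0.66, adjusted p = 0.0497, edgeR), and Vcam1, an adhesion protein that vessels and stromal cells also carry (2.71, SE 0.51, adjusted p = 0.0249, edgeR). Myf5 had 0 counts in each library. Six4, a homeobox factor upstream of the myogenic factors, stood lower in every KO library, at 1.80, 7.23 and 1.94 in the KO and 8.06, 13.1 and 17.2 in the WT libraries (CPM), and did not pass (-1.80, SE 0.63, adjusted p = 0.103, edgeR). Myf6 and Eya1 did not pass either, at 1.46 (SE 0.71) and 2.58 (SE 1.33).

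Cardiac genes were low: the 12 listed summed to 10.2, 9.32 and 6.58 in KO and 9.19, 9.31 and 5.07 in WT on the length-scaled level, with overlap. Of 7 tested, edgeR called 0 higher and 0 lower, with 2 higher and 0 lower at an unadjusted p of 0.05, DESeq2 called 1 higher and limma-voom 0. Tnni3, the cardiac inhibitory troponin, was at 14.6, 3.39 and 10.1 in the KO and 2.95, 1.97 and 1.13 in the WT libraries (CPM) (2.21, SE 0.63, adjusted p = 0.0610, edgeR), and Mybpc3, Myh6, Myl7, Myl4 and Nppb also did not pass. Of 9 smooth muscle genes 3 were higher and 0 lower, with 5 and 0 at an unadjusted p of 0.05 and 0 lower by DESeq2 and limma-voom. Myh11, the smooth muscle heavy chain, rose by 3.01 (SE 0.59), Synpo2 by 2.29 (SE 0.42) and Mylk, the smooth muscle light chain kinase, by 2.89 (SE 0.52). Acta2, the smooth muscle actin, did not pass (1.05, SE 0.35, adjusted p = 0.0952, edgeR), and neither did Lmod1 or Tagln. The smooth muscle sum was 60.7, 109 and 95.9 in KO and 43.9, 55.4 and 51.1 in WT. It was highest in KO replicate 2, where skeletal muscle RNA was the lowest of the KO libraries. Most of that sum in KO was Acta2, at 21.5, 51.6 and 41.2, and Tagln, at 11.8, 29.9 and 23.7. Like Actg2 and Cnn1, both were highest in KO replicate 2. The 3 genes called higher were instead at their lowest KO level there. Myh11 was at 1.12, 1.03 and 3.73 in KO, Synpo2 at 1.45, 0.716 and 1.55, and Mylk at 9.22, 4.003 and 6.35. Of 15 non-muscle counterparts of the members 3 were higher and 0 lower: Actn1 (1.16, SE 0.30), Myh10 (2.13, SE 0.50) and Myl9 (1.57, SE 0.33). Here 5 were higher and 2 lower at an unadjusted p of 0.05, DESeq2 called 5 and 2, and limma-voom 2 and 0. Myh9, Myl12b and Ckb did not pass. Their sum was 2249, 2305 and 3766 in KO and 3389, 2200.2 and 2036 in WT, with overlap.

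Markers of fibroblasts and vessels were also higher in KO. Their part in the muscle result was not tested. The 10 fibroblast genes summed to 4649, 1481 and 3401 in KO and 273, 352 and 437 in WT (9 higher and 0 lower of 10 tested). Those named by p were the collagen genes Col1a2 and Col3a1, at log2 fold changes of 3.22 (SE 0.57) and 3.21 (SE 0.61), the matrix genes Dpt, Dcn and Lum, at 5.57 (SE 0.86), 3.82 (SE 0.64) and 3.75 (SE 0.70), and the receptor Pdgfrb, at 2.41 (SE 0.39). The 8 endothelial genes summed to 101, 61.3 and 228 in KO and 15, 17.6 and 13.8 in WT (7 higher and 0 lower of 8 tested). Of these Kdr, a VEGF receptor, was at 2.09 (SE 0.34), and Vwf, Cdh5, Erg, Pecam1 and Cldn5 at 3.11 (SE 0.51), 3.01 (SE 0.51), 3.23 (SE 0.56), 3.08 (SE 0.56) and 3.52 (SE 0.72). KO was above WT in every library for both sums.

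The 10 adipocyte genes summed to 66.0, 32.2 and 395 in KO and 20.1, 8.64 and 6.59 in WT (3 higher and 0 lower of 10 tested), and KO replicate 3 was highest for fat and for muscle. Adiponectin, Adipoq, a defining fat gene, was at 0.272, 1.28 and 13.4 in the KO and 0.383, 0.484 and 0.268 in the WT libraries (CPM) and did not pass (3.69, SE 1.29, adjusted p = 0.104, edgeR). Fabp4, Lpl and Car3 rose, by 4.49 (SE 1.14), 5.17 (SE 1.04) and 3.24 (SE 0.65), and vessels, macrophages or muscle express them too. Plin4 and Cfd did not pass, at 2.52 (SE 0.77) and 2.84 (SE 1.30). The 10 skin epithelium genes summed to 7.80, 2.56 and 11.7 in KO and 2.09, 1.36 and 1.25 in WT (1 higher and 0 lower of 4 tested). Most of this sum was Sfn, at 6.33, 2.23 and 9.03 in KO and 1.30, 0.777 and 0.886 in WT, which rose by 2.56 (SE 0.58). Krt10 and Trp63 did not pass, at 3.63 (SE 1.11) and 3.37 (SE 1.45). The keratins Krt5, Krt14 and Krt1 had 0 to 1 counts in each KO library and 0 to 11 in each WT library, and Krt15 had 0 throughout. Lor and Dsp, by contrast, were lower in every KO library than in any WT library. Dsp did not pass, at -2.06 (SE 1.12), and Lor was not tested.

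Of 8 genes of Schwann cells and nerve 1 was higher, Pmp22, at 3.14 (SE 0.57), and 0 lower, with 3 higher and 2 lower at an unadjusted p of 0.05. DESeq2 called 2 and 1 of them, and limma-voom 1 and 0. S100b and Sox10 stood lower in every KO library, at -2.44 (SE 0.85) and -1.93 (SE 1.03), and Mbp higher, at 0.83 (SE 0.33), and none of these 3 passed. The 9 glioma and neural genes ran the other way from muscle, at 339, 813 and 363 in KO and 1334, 1045 and 1000.3 in WT (0 higher and 2 lower of 9 tested), with 0 higher at an unadjusted p of 0.05 and 0 higher by DESeq2 and limma-voom. Most of that sum was Vim, at 319, 651 and 351 in KO and 1106, 814 and 768 in WT, so the sum mainly follows this gene. Sox2, for example, was at 9.03, 71.7 and 2.30 in KO and 99.8, 111 and 110 in WT on the same scale. Slc1a3 and Cntn1 fell, by 2.21 (SE 0.56) and 2.98 (SE 0.64) on the log2 scale. Vim, Olig2 and Cspg4 did not pass, at -1.02 (SE 0.46), -1.99 (SE 1.0) and -0.96 (SE 0.52). Sox2, a neural stem cell factor, was at 18.6, 147 and 4.74 in the KO and 205, 228 and 227 in the WT libraries (CPM) and did not pass (-1.95, SE 1.03, adjusted p = 0.219, edgeR). KO replicate 3 was the lowest library for Sox2, as for Myh3 and Tnni1, and KO replicate 2 the highest of the KO libraries.

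**Figure D5:**
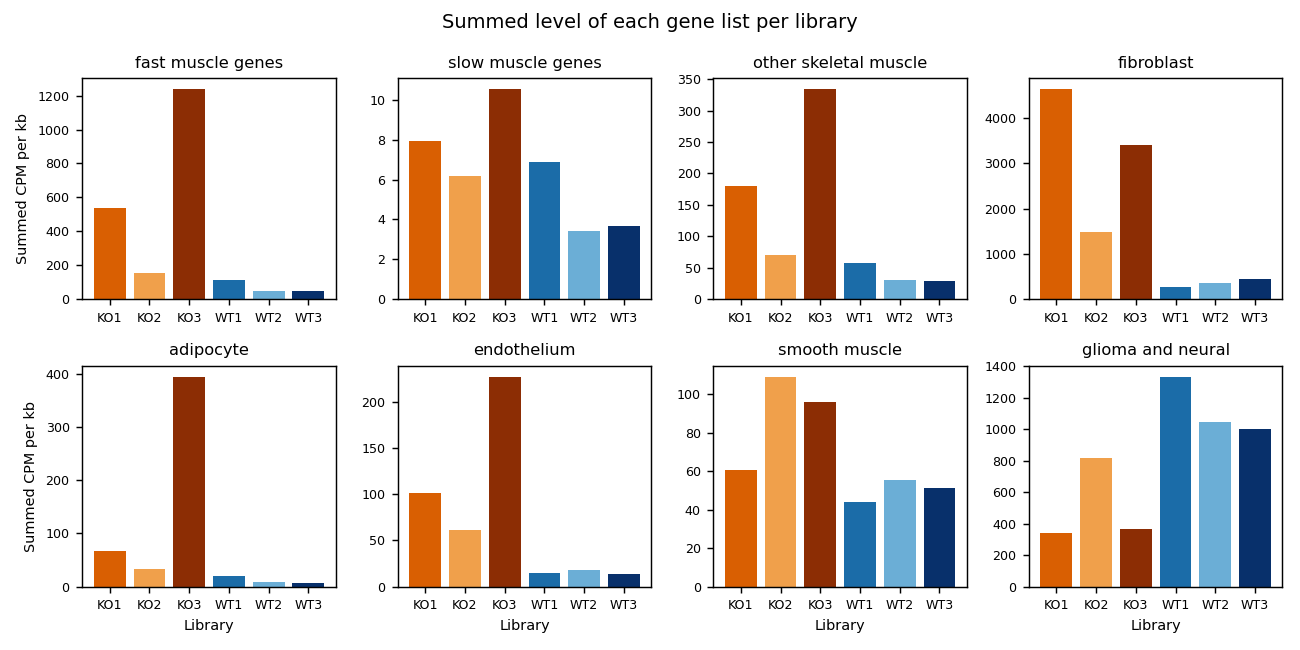
Summed length-scaled level (CPM per kilobase of exon) of 8 gene lists, 1 bar per library, each panel with its own linear axis from 0. The sums of fast muscle, other skeletal muscle, adipocyte and endothelial genes are highest in KO replicate 3. The fibroblast sum is highest in KO replicate 1, the smooth muscle sum in KO replicate 2 and the glioma and neural sum in WT.

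Some counts are uncertain because genes share sequence or place. The fast and perinatal heavy chains lie side by side on chromosome 11. Of all 50-base stretches of its transcripts, Myh4 shared 18.9%, Myh1 25.4%, Myh2 22.9%, Myh8 12.1% and Myh3 4.76% with transcripts of other genes, mostly heavy chains. Myh7 shared 15.6%, mainly with Myh6, and Tpm3 23.2% with its pseudogenes. How the authors treated reads with several alignments is not given in the sources used here. Exons of another gene covered 74.0% of the exon bases of Tnnc2 (Ube2c), 31.9% of Mb, 21.9% of Atp2a1 (Rabep2), 15.5% of Ckm and 13.3% of Myh7, and less than 10% in the other members. The library method does not mark strand, so reads from such neighbours cannot be told apart, and the length-scaled levels of these 5 genes are the least certain in this respect.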

How the data were processed

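Bulk RNA-seq libraries were made with Smart-seq2, per the labels' protocols, a method that marks neither strand nor single molecules. The authors' deposited table holds unnormalized read counts for each gene and each library, with positions of exons and their merged length, laid out as by featureCounts per the file headers. The submitters' processing notes name mm10 as the build and DESeq2 as a tool. The aligner, annotation release and read-assignment settings were not stated in the sources. Replicates were numbered in accession order. The counts of every pair of libraries differed by more than sampling noise (for the closest pair, chi-square over degrees of freedom was 10.2). That pair was WT replicates 2 and 3. On this measure KO replicate 2 was nearer to WT replicates 2 and 3 (93.2 and 98.4) than to KO replicates 1 and 3 (305 and 414). WT replicate 1 stood at 189 and 196 from WT replicates 2 and 3.

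All genes of KO and WT were compared in R 4.3.3 with edgeR 4.0.16, using its quasi-likelihood test, two-sided, with TMM scaling, default filterByExpr and group as the only term. Adjusted p is Benjamini-Hochberg over the 18621 genes that passed the filter, at a threshold of 0.05. The SE of a log2 fold change was taken as its size over the square root of its F statistic. Limma 3.58.1 (voom) and DESeq2 1.42.0 were run as alternatives, as were other scalings and filters and fits with each library left out. Scripts were tested on simulated data. There the edgeR fit called 30 of 97 genes changed 4-fold, 85 of 96 changed 16-fold and 4 of 17982 unchanged genes. A gene that did not pass may therefore still differ between the groups. Exon overlap used the table's own exons, and shared stretches used GENCODE M21 transcripts. Upstream sequences and start sites are from RefSeq.

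The members and gene lists were chosen with earlier results of these data known. Members with 100 counts or more in all were named with values. Of each other list, up to 6 tested genes with the smallest p were named, apart from 3 that are not reported here. Beyond this rule Myh7, Myf5, Gfap, Krt1, Krt5, Krt14, Krt15, Lor and the members under 100 counts were named after their values were seen. In the table, 0 columns were left out.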

Additional observations from a re-analysis of the deposited data

How the results depend on the processing

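No paired analysis was possible because the labels carry no replicate numbers. The 18 members called higher became 7 with limma-voom and ranged from 0 to 27 when 1 library was left out; members called lower ranged from 0 to 2. Other skeletal muscle genes called higher numbered 29 with DESeq2, 5 with limma-voom and 0 to 33 with 1 library left out. Over all genes, 3266 were higher with DESeq2, 988 with limma-voom and 0 to 4449 with 1 library left out. Lower genes numbered 24 without composition scaling, 476 without the low-count filter, 1244 with DESeq2 and 0 to 3629 with 1 library left out. The cause of these moves was not tested. Of the members' directions, 1 reversed in 1 setting: the log2 fold change of Casq2 was -0.00229 to 0.68 with 1 library left out, and the value below 0 came without KO replicate 3. The median of all genes tested was -0.05 with TMM, -0.12 with RLE scaling and -0.18 without composition scaling, and the members' median was 2.50, 2.44 and 2.42. From raw counts instead of length-scaled levels, the fast share of adult heavy chains in WT was 98.3% (98.8% length-scaled). The fast share over the pairs was 92.6% in KO and 82.6% in WT from raw counts, and 93.5% and 86.3% as a mean of the 7 pair shares, against 96.6% and 90.9%. The summed member level was 1170 in KO and 263 in WT, and 3140.4 and 1143 CPM without division by length. Without the tropomyosins it was 992 in KO and 145 in WT. Leaving out 1 library gave a fast share over the pairs of 95.5 to 98.1% in KO and 90.1 to 91.5% in WT, and a Myh4 share of the adult heavy chains, an alternative added after seeing the data, of 50.9 to 70.9% in KO and 61.2 to 68.5% in WT. Depth limits the myogenic factors, Myl2, Myl3 and Myh7, which had under 100 counts in all.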
